A study of Homo sapiens with 12 samples.

Results

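The 10 genes described here are FLT3, which encodes a growth factor receptor, STAT5A and STAT5B, which encode transcription factors activated by it, and 7 genes linked to them, CSF2RB, CISH, SOCS1, SOCS2, SOCS3, PIM1 and DUSP6. Their regions were all rows of the H3K9ac table that overlapped the RefSeq gene body of 1 of these 10 genes with 10 kb added on each side, which gave 68 of the 47648 regions in the table. Of these, 4 lay within reach of both STAT5A and STAT5B and were counted once. The cells were MOLM-13, a human acute myeloid leukaemia line with a KMT2A-MLLT3 fusion gene and a FLT3 internal tandem duplication, which all groups compared share. The assay, chromatin immunoprecipitation sequencing (ChIP-seq), measured H3K9ac, the acetylation of lysine 9 on histone H3 found at active promoters and enhancers. The libraries were 3 from cells given WM-1119, a small-molecule inhibitor of the acetyltransferase KAT6A, at 4 µM for 4 days, and 3 from cells given the solvent DMSO. The 6 input samples of the series were not analysed here. Whether the replicates came from separate cultures is not stated in the labels, and the p-values therefore reflect library spread that may be technical.

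FLT3 is a receptor tyrosine kinase of blood progenitors. The internal tandem duplication makes it signal without its ligand, and the mutant receptor drives phosphorylation of STAT5 as well as the RAS and MAPK cascade. STAT5 dimers bind the palindrome TTCNNNGAA, and their best known targets, CISH and the SOCS genes, encode SH2-domain proteins that in turn dampen cytokine and receptor signalling. DUSP6 is the matching brake on the MAPK branch, a phosphatase for ERK whose gene is switched on by ERK activity.

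The STAT5 motif was found in the promoter window of CISH and in no other member window. RefSeq promoter windows (GRCh38.p14, 250 bases before to 50 after the start) were given for 8 of the 10 genes, and both strands read alike because the motif is palindromic. The CISH window held 4 matches, while 7.66% of 35116 promoter windows of the same length held at least 1 and 7 windows in all held 4 or more. They lay as a pair of pairs, shown here because CISH is the member whose promoter H3K9ac was lower in WM-1119 in every library. That difference did not pass the threshold used below and turned sign in some settings, and the region also covers a start of MAPKAPK3. Capitals mark the motif, and both stretches are on the minus strand, at chr3:50611991-50612020 and chr3:50611876-50611905.
CISH distal pair: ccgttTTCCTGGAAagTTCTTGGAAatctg
CISH proximal pair: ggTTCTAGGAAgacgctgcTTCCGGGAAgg
A match is a description of the letters and not a measured binding site, and the absence of these letters from the other windows says nothing of STAT5 at those genes. The 250 bases before the FLT3 start (minus strand, chr13:28100577-28100826) are given because the FLT3 promoter region had the densest H3K9ac of the 10 genes. Capitals mark CG dinucleotides, of which it held 26, against a median of 11 over all promoter windows.
FLT3 promoter: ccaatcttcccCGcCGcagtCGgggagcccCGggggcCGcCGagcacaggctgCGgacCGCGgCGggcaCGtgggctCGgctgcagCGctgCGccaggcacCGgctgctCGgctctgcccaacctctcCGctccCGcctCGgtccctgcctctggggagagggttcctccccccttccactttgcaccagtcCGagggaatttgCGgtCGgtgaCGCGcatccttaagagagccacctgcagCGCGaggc

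Libraries differed widely in depth. The values, in CPM, reads per 1000000 over all listed regions, corresponded to 4542322, 9996190 and 12705349 reads in WM-1119 replicates 1, 2 and 3 and to 719329, 1298443 and 7481097 reads in DMSO replicates 1, 2 and 3. With 0 reads counted, a region could still hold up to 0.66 CPM in the shallowest WM-1119 library and 4.17 CPM in DMSO replicate 1, by counting error alone. The weakest regions were stronger in DMSO replicates 1 and 2: this background, on chromosome 13, where FLT3 lies, came to 12.6 and 11.2 CPM per kb, against 4.30 in DMSO replicate 3 and 4.56 to 5.87 in the WM-1119 libraries. Of 9 myeloid markers 8 had a region at an annotated end, from 3.67 CPM for CD33 to 1048 CPM for HOXA9. B cell, T cell, epithelial and fibroblast markers with such a region did not exceed 14.7 CPM. Of 4 erythroid markers EPOR, which is also among the cytokine receptors, averaged 54.8 CPM in WM-1119 and 65.2 CPM in DMSO, KLF1 averaged 1.05 CPM in WM-1119 and 1.46 CPM in DMSO, and GATA1 and HBB had no region.

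None of the 66 member regions tested passed the threshold. The test was limma on log2(CPM + 1), fitted to the 44763 regions whose mean reached 1 CPM and adjusted over all of them by the Benjamini-Hochberg method, and it called 0.0603% of those regions, all lower in WM-1119. At an unadjusted p under 0.05, 2 member regions were higher and 14 lower, where 2.58% and 10.8% of all regions were. edgeR's quasi-likelihood test on the recovered reads of 5 libraries also called none, with 0 higher and 5 lower at that level, beside 0.782% and 3.96% of all regions. The limma count moved most with DMSO replicate 3: without that library 3 member regions passed as higher and 36 as lower, beside 5.28% and 38% of all regions. In 1 region all 3 WM-1119 libraries lay above all 3 DMSO libraries and in 15 all lay below, beside 3.76% and 13.2% of all tested regions. Of the 10 promoter regions 6 were higher and 4 lower, with a median log2 change of 0.03. The other 58 regions, of which 56 were tested, were mostly weak, 3 of them higher and 53 lower, with a median log2 change of -0.75 and a median level of 4.00 CPM. Over the whole table the median log2 change was also -0.75 among regions averaging 2 to 5 CPM. It was 0.23 among those averaging 100 to 200 CPM. The medians of the 56 regions and of all regions of 2 to 5 CPM were less alike under some settings. They were -0.18 and -0.034 with quantile normalization, and -0.29 and 0.13 with DMSO replicate 3 as the lone control. With background subtracted they were -0.94 and -1.02, and with median centring 0.026 and 0.026. On the log2(CPM + 1) scale, simulated data with the depths of these libraries recovered 7% of 2-fold and 89% of 4-fold changes, with 200 changed among 43870 regions. The changed regions were drawn from those averaging at least 10 CPM, while 42 of the 66 tested member regions averaged 1 to 10 CPM. Unchanged regions had the same expected level in all simulated libraries, without the raised background of DMSO replicates 1 and 2. These rates therefore do not describe the weak member regions.

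**Figure D1:**
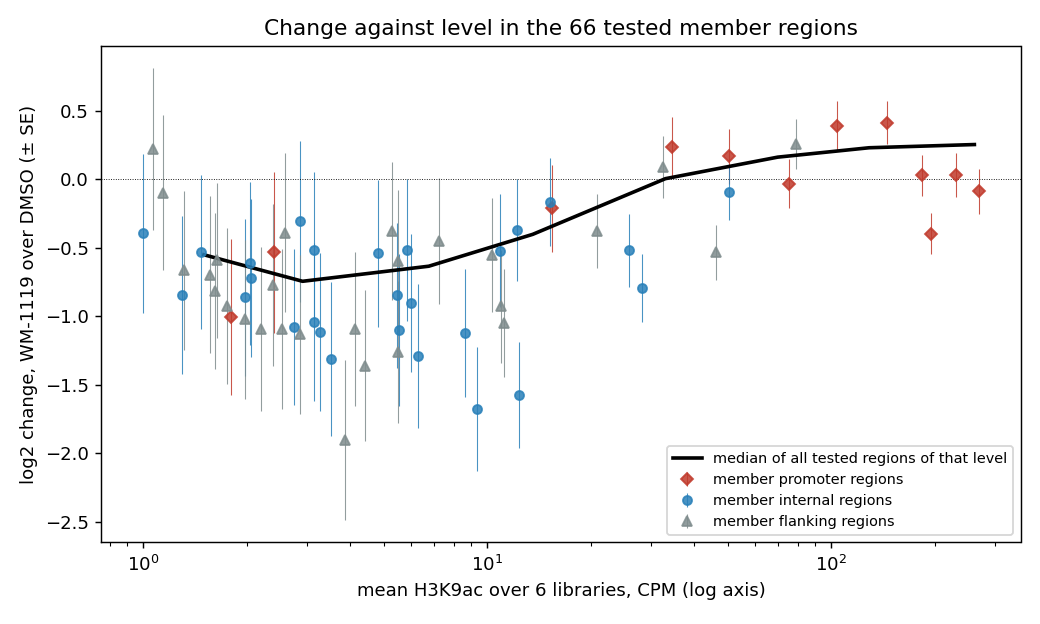
log2 change of H3K9ac (WM-1119 over DMSO, ± SE from limma, vertical axis) against mean level in CPM over 6 libraries (log axis) for the 66 tested member regions, with the median of all tested regions of each level as a black line. Red diamonds include 2 minor regions, that of STAT5A touching a promoter window and that of SOCS2 lying within 1 kb of an annotated end. Most weak member regions lie on or below the line, among them internal FLT3 regions at -1.58 and -1.68, and the CISH promoter region at -0.40 is the lowest of the member regions above 100 CPM.

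FLT3 had the highest H3K9ac per length of the 10 promoter regions, and WM-1119 and DMSO overlapped there. The region at chr13:28098349-28102175, 3827 bp that span the annotated start, held 234, 239 and 295 CPM in WM-1119 replicates 1, 2 and 3, against 214, 233 and 397 CPM in the DMSO replicates. DMSO replicate 3 was the highest of the 6 and the other 2 DMSO libraries were the lowest. Per kb of region the level was 66.9 ± 8.78 CPM in WM-1119 and 73.5 ± 26.2 CPM in DMSO (SD, n = 3 each), denser than 98.4% of coding-gene end regions. The log2 change was -0.09 (adjusted p = 0.746 in limma, SE 0.17). Its sign turned with scaling, to 0.68 with median centring, which moved every region up alike, and to 0.22 in edgeR on 5 libraries. It was 0.19 without DMSO replicate 3 and -0.64 (adjusted p = 0.509 in limma, SE 0.13) with that library as the lone control, assumed to vary like the others.

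Just inside the gene, 3 regions centred 2941, 4507 and 6093 bp downstream of the FLT3 start were lower in every WM-1119 library than in any DMSO library. Groups were apart in that direction in 941 of the 5697 tested regions averaging 5 to 10 CPM. At 10 to 20 CPM they were so in 659 of 3606, and at 20 to 50 CPM in 437 of 4260. The region at chr13:28097176-28098095 held 7.93, 4.10 and 5.35 CPM in the WM-1119 replicates, against 16.7, 23.9 and 16.4 CPM in the DMSO replicates. It had the smallest p of all member regions, a log2 change of -1.58 (adjusted p = 0.0966 in limma, SE 0.39), which missed the threshold. The DMSO values rested on 12, 31 and 123 reads, and those of WM-1119 replicates 1 and 3 on 36 and 68. The next region, at chr13:28095673-28096465, held 6.38, 2.30 and 3.31 CPM in WM-1119, against 18.1, 16.9 and 9.09 CPM in DMSO, with a log2 change of -1.68 (adjusted p = 0.19 in limma, SE 0.45). The strongest internal region, at chr13:28093627-28095339, held 22.9, 17.3 and 20.3 CPM in WM-1119, against 48.7, 31.6 and 28.9 CPM in DMSO, with a log2 change of -0.79 (adjusted p = 0.292 in limma, SE 0.25). That change was -0.26 in edgeR on 5 libraries and -0.020 with median centring. The other 2 regions had -1.17 and -1.13 in edgeR, in order from the promoter, and -0.80 and -0.91 with median centring.

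With DMSO replicate 3 as the lone control the 3 log2 changes were -1.40, -1.10 and -0.51 (SE 0.35, 0.42 and 0.23). Their sign there follows from groups that do not overlap, while the median over all regions was 0.06 in that comparison. None passed there, at adjusted p = 0.637, 0.839 and 0.855 in limma. A background was also subtracted per library and chromosome, with values below 0 set to 0. The summed signal of the 3 was then 21.2, 11.1 and 16.2 CPM in WM-1119, against 63.7, 51.5 and 46.2 CPM in DMSO. The region nearest the promoter kept 3.13, 0 and 1.37 CPM in WM-1119, against 8.08, 20.5 and 14.5 CPM in DMSO. The next region kept 2.14, 0 and 0 CPM in WM-1119. In WM-1119 replicate 2 the sum thus came from the strongest internal region alone, and values set to 0 enter the changes. Under that subtraction the region nearest the promoter had a log2 change of -2.76 (adjusted p = 0.0941 in limma; the range over 17 alternatives is 0.00514 to 0.837). It passed without DMSO replicate 3, where limma gave an adjusted p of 0.00583.

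Deeper in the gene lay 9 further internal FLT3 regions, centred 41511 to 68673 bp from the start. Their summed signal was 26.6, 22.2 and 20.1 CPM in WM-1119, against 83.4, 48.5 and 22.3 CPM in DMSO. DMSO replicate 3 thus lay within the WM-1119 range and only the 2 DMSO libraries with high background stood above it. In 2 of these deeper regions, both averaging 2 to 5 CPM, the groups did not overlap. Of all 13307 tested regions of that level, 2153 had groups apart in the lower direction. With background subtracted, the 9 regions summed to 9.36, 9.52 and 6.08 CPM in WM-1119, against 64.9, 22.4 and 9.12 CPM in DMSO. The raised background of DMSO replicates 1 and 2 on chromosome 13 moves with the signal of these regions, and its part in it was not tested.

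**Figure D2:**
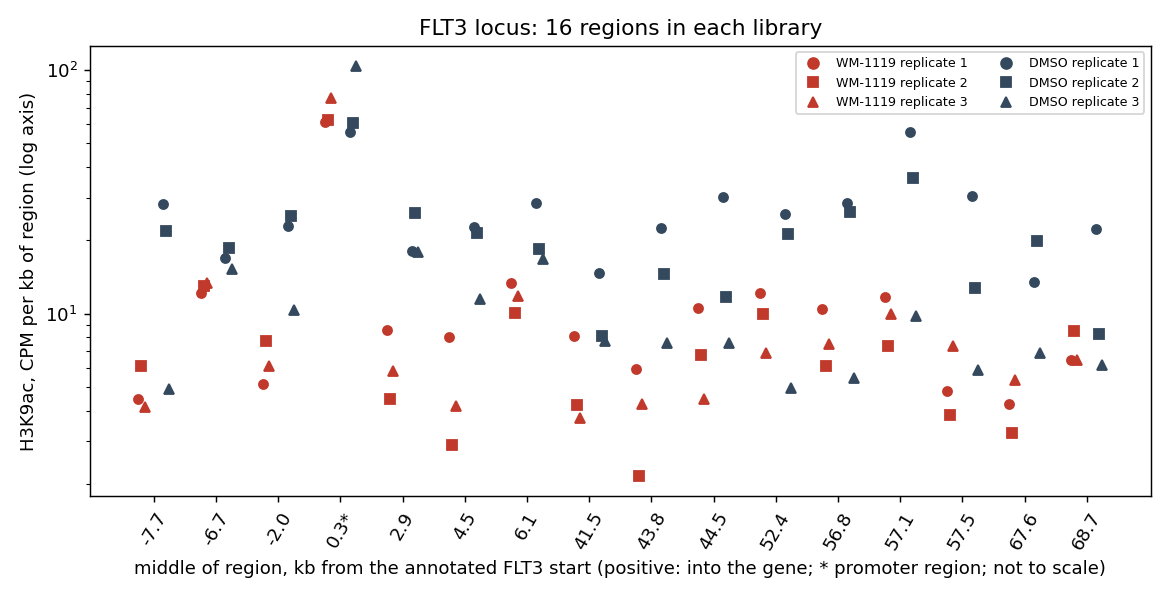
H3K9ac in CPM per kb of region (log axis) for each of the 16 regions of the FLT3 locus in each library, ordered by the distance of the region's middle from the annotated start in kb; red symbols are WM-1119 and dark symbols DMSO. In the 3 regions that follow the promoter region into the gene all DMSO symbols lie above all WM-1119 symbols, while in most of the 9 deeper ones they do not.

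As a share of the FLT3 promoter region, the internal signal was 27.3%, 19.2% and 16.7% in the WM-1119 replicates, against 77.9%, 51.8% and 19.3% in the DMSO replicates. The log2 ratio averaged -2.28 ± 0.37 in WM-1119 and -1.23 ± 1.03 in DMSO (SD, n = 3 each). The difference was -1.05 (exact two-sided permutation test, p = 0.2), and with 3 libraries a group this test cannot go below 0.1. DMSO replicate 3 lay inside the WM-1119 range, and with it as the lone control the difference turned to 0.091. For the region nearest the promoter alone the share was 3.39%, 1.72% and 1.82% in WM-1119, against 7.79%, 10.2% and 4.15% in DMSO, with no overlap. The shares overlapped for the other 2 near regions and for the sum of the 3. That sum was 15.9%, 9.92% and 9.83% in WM-1119, against 39.0%, 31.0% and 13.7% in DMSO. For the strongest internal region alone the share was 9.78%, 7.24% and 6.89% in WM-1119, against 22.7%, 13.5% and 7.28% in DMSO, and the difference of its log2 ratio was -0.73 (exact two-sided permutation test, p = 0.2, smallest possible 0.1).

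Upstream of FLT3, 3 further regions were lower on average. The strongest, at chr13:28106625-28108024 over the pseudogene CHCHD2P8 and named after its values were seen, held 17.0, 18.2 and 18.7 CPM in WM-1119, against 23.6, 26.2 and 21.4 CPM in DMSO. The groups did not overlap, and the log2 change was -0.38 (adjusted p = 0.448 in limma, SE 0.27). It was -0.12 with quantile normalization, -0.095 with background subtracted, 0.0019 in edgeR on 5 libraries and 0.39 with median centring. The region next to the promoter region, at chr13:28102369-28102794, was also named after its values were seen. It held 2.20, 3.30 and 2.60 CPM in WM-1119, against 9.73, 10.8 and 4.41 CPM in DMSO, with no overlap. Its log2 change was -1.26 (adjusted p = 0.343 in limma, SE 0.52), and -1.14 in edgeR and -0.49 with median centring. Its DMSO values rested on 7, 14 and 33 reads. Groups were apart in the lower direction in 437 of the 4260 tested regions averaging 20 to 50 CPM, the level of the strongest. At 5 to 10 CPM, the level of the region next to the promoter region, they were so in 941 of 5697.

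CSF2RB encodes the signalling chain shared by the receptors for GM-CSF, interleukin 3 and interleukin 5. It had 1 region, at its annotated end of lower coordinate (chr22:36913327-36914682), the least dense of the 10. This held 15.0, 13.4 and 13.9 CPM in WM-1119, against 16.7, 20.8 and 12.8 CPM in DMSO, and the groups overlapped (log2 change -0.21, SE 0.32, adjusted p = 0.681 in limma). The sign turned with quantile normalization, median centring and edgeR on 5 libraries, to 0.20, 0.56 and 0.23.

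STAT5A and STAT5B, neighbours on chromosome 17 that encode closely related factors, both had promoter regions that were higher on average. The STAT5B promoter region (chr17:42275073-42277628) held 112, 120 and 118 CPM in WM-1119, against 63.9, 89.3 and 121 CPM in DMSO. The WM-1119 libraries lay close together, DMSO replicates 1 and 2 below them, and DMSO replicate 3 was the highest of all 6. Its log2 change of 0.39 (adjusted p = 0.354 in limma, SE 0.18) turned to -0.058 with DMSO replicate 3 as the lone control, and without that library it passed at 0.62 (adjusted p = 0.0106 in limma). The STAT5A promoter region (chr17:42287651-42289215) held 39.4, 32.7 and 39.6 CPM in WM-1119, against 29.2, 29.3 and 36.4 CPM in DMSO. It also overlaps the upstream boundary of the STAT5B annotation on the minus strand, so the signal of the 2 genes cannot be told apart there. The groups overlapped and the log2 change was 0.23 (adjusted p = 0.54 in limma, SE 0.22). Its sign was positive in all 17 alternatives, from 0.03 to 1.00.

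Inside the STAT5 genes, H3K9ac was sparse away from the ends of other genes. Apart from the STAT5A promoter region, the strongest internal region of STAT5B (chr17:42247979-42249185) held 10.3, 10.0 and 9.68 CPM in WM-1119, against 22.2, 7.70 and 13.2 CPM in DMSO. That of STAT5A (chr17:42311367-42311860) held 2.42, 2.30 and 2.44 CPM in WM-1119, against 19.5, 3.08 and 3.61 CPM in DMSO, where 1 DMSO library set the difference: the log2 change was -1.10 (adjusted p = 0.375 in limma, SE 0.55) and -0.36 without DMSO replicate 1. The STAT5B value of -0.37 (adjusted p = 0.559 in limma, SE 0.37) turned positive with quantile normalization, median centring and background subtraction, to 0.16, 0.40 and 0.18.

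Among the STAT5 feedback genes, CISH was the only member promoter region with all WM-1119 libraries below all DMSO libraries, and it did not pass. CISH encodes an SH2-domain inhibitor of cytokine receptors. Its region, chr3:50604395-50613698, covers the whole gene and also the first start of MAPKAPK3, a MAPK-activated kinase gene on the other strand, so the signal of the 2 genes cannot be told apart. It held 160, 160 and 183 CPM in WM-1119, against 207, 217 and 240 CPM in DMSO. The WM-1119 mean was 168 ± 13.4 CPM and the DMSO mean 221 ± 16.6 CPM (SD, n = 3 each). The log2 change was -0.40 (adjusted p = 0.336 in limma, SE 0.15), and -0.51 with DMSO replicate 3 as the lone control. The region passed in 1 alternative, without DMSO replicate 3, at -0.34 (adjusted p = 0.0306 in limma). The change was negative in 15 of 17 alternatives and turned to 0.37 with median centring and to 0.032 in edgeR on 5 libraries. Of the 2046 regions with a mean of 100 to 200 CPM, 1892 were higher in WM-1119, and 15 had non-overlapping groups in the lower direction.

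The regions around CISH differed in sign. One about 10 kb downstream of its start (chr3:50599740-50603382), named after its values were seen, held 34.1, 36.7 and 42.2 CPM in WM-1119, against 55.6, 57.0 and 51.9 CPM in DMSO. The groups did not overlap (log2 change -0.53, SE 0.20, adjusted p = 0.337 in limma; 0.24 with median centring). The region over the second MAPKAPK3 start (chr3:50616209-50618729) held 72.2, 88.5 and 96.0 CPM in WM-1119, against 55.6, 68.5 and 94.0 CPM in DMSO, with a log2 change of 0.26 (adjusted p = 0.45 in limma, SE 0.18) that turned to -0.14 with DMSO replicate 3 as the lone control.

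The SOCS genes, whose products bind activated receptors or JAK kinases and limit their signalling, showed overlapping groups at each promoter region. SOCS1 (chr16:11254069-11257349) held 77.7, 68.9 and 76.6 CPM in WM-1119, against 68.1, 77.0 and 83.8 CPM in DMSO. SOCS2 (chr12:93569417-93575814) held 313, 175 and 221 CPM in WM-1119, against 218, 196 and 266 CPM in DMSO. WM-1119 replicates 1 and 2 were the highest and the lowest of the 6 SOCS2 values, so the spread within the treated libraries exceeded the difference between groups. SOCS3 (chr17:78358898-78360926) held 67.4, 49.0 and 44.5 CPM in WM-1119, against 55.6, 43.9 and 42.2 CPM in DMSO. In SOCS3 the first replicate was the highest of each group. The log2 changes were -0.03 ± 0.18, 0.03 ± 0.16 and 0.17 ± 0.20 for SOCS1, SOCS2 and SOCS3 (SE), with adjusted p = 0.914, 0.911 and 0.615 in limma. Those of SOCS1 and SOCS2 turned sign with scaling, to 0.74 for SOCS1 with median centring and to -0.19 for SOCS2 with quantile normalization.

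SOCS2 also had sizeable H3K9ac inside its annotated body, away from the promoter region. The strongest internal region (chr12:93590204-93592904) held 62.7, 39.7 and 44.7 CPM in WM-1119, against 61.2, 47.0 and 47.5 CPM in DMSO. Here too replicate 1 was the highest of each group and the groups overlapped (log2 change -0.09, SE 0.20, adjusted p = 0.775 in limma; 0.68 with median centring). The promoter region carried 74.2% of the summed CPM of the SOCS2 regions in WM-1119 and 68.0% in DMSO.

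PIM1 encodes a serine/threonine kinase that STAT5 induces and that promotes survival downstream of FLT3. Its promoter region (chr6:37168834-37173848) held 208, 170 and 181 CPM in WM-1119, against 172, 196 and 179 CPM in DMSO. The groups overlapped fully and the log2 change was 0.03 (adjusted p = 0.914 in limma, SE 0.15), with a sign that turned to -0.19 under quantile normalization. All 8 weaker PIM1 regions were lower in WM-1119. The smallest p among them belonged to one beyond the gene (chr6:37180207-37180484) at 1.98, 0.30 and 0.55 CPM in WM-1119, against 11.1, 6.93 and 2.27 CPM in DMSO. That region rested on 8, 9 and 17 reads in DMSO, with a log2 change of -1.90 (adjusted p = 0.283 in limma, SE 0.58). The strongest internal region (chr6:37173931-37174673) held 10.1, 2.60 and 3.38 CPM in WM-1119, against 16.7, 12.3 and 6.68 CPM in DMSO (log2 change -1.12, SE 0.47, adjusted p = 0.345 in limma). Chromosome 6 had a background of 12.2 and 10.8 CPM per kb in DMSO replicates 1 and 2, against 3.91 in DMSO replicate 3 and 4.44 to 5.73 in WM-1119, and its part in these weak regions was not tested.

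DUSP6 was the one member whose promoter region was higher in every WM-1119 library than in any DMSO library, again without passing. The region at chr12:89349622-89354988 held 153, 188 and 159 CPM in WM-1119, against 111, 135 and 129 CPM in DMSO. The means were 167 ± 19.1 CPM in WM-1119 and 125 ± 12.3 CPM in DMSO (SD, n = 3 each), a log2 change of 0.41 (adjusted p = 0.339 in limma, SE 0.16). The sign was positive in all 17 alternatives, from 0.19 with quantile normalization to 1.18 with median centring. It was 0.36 with DMSO replicate 3 as the lone control, and the region passed in 1 alternative, without DMSO replicate 3. Of the 2046 regions of similar level, 400 had non-overlapping groups in the higher direction. The second DUSP6 region, at the 3′ end of the gene (chr12:89345735-89347458), also named after its values were seen, held 12.8, 17.4 and 12.7 CPM in WM-1119, against 16.7, 19.3 and 12.7 CPM in DMSO. The groups overlapped and the log2 change of -0.17 turned positive in 5 alternatives, to at most 0.60 with median centring.

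**Figure D3:**
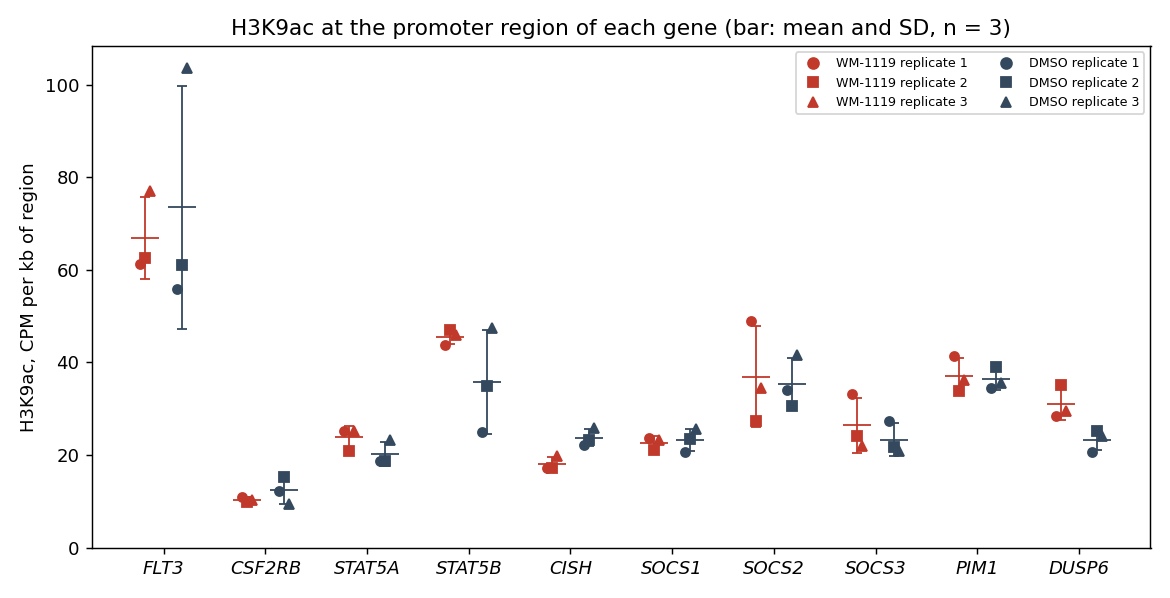
H3K9ac in CPM per kb at the promoter region of each of the 10 genes, WM-1119 (red) left of DMSO (dark), with a symbol per replicate and a bar for mean and SD (n = 3 each). FLT3 is the densest and CSF2RB the least dense; the groups are apart at CISH (WM-1119 lower) and DUSP6 (WM-1119 higher) and overlap elsewhere.

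Ordered by level per length over the 6 libraries, the promoter regions ran from FLT3 at 70.2 CPM per kb through STAT5B at 40.7, PIM1 at 36.7, SOCS2 at 36.2, DUSP6 at 27.2, SOCS3 at 24.9, SOCS1 at 23.0, STAT5A at 22.0 and CISH at 20.9 to CSF2RB at 11.4. In neither group did the libraries of FLT3 overlap with those of STAT5B, next in this order, nor those of CSF2RB with those of CISH. Between these, most neighbours lay within each other's spread. Among coding-gene end regions STAT5B stood at the 84.3 percentile and CSF2RB at the 17.6 percentile.

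Some other strong regions had a pattern over the 6 libraries close to that of the FLT3 promoter region. Among 2184 coding-gene end regions outside the members whose mean reached 100 CPM, the 5 nearest belonged to SOX4, ITGAL, TRIM13, BCL2 and RPL7L1. The root mean square difference of their centred log2 values from those of FLT3 was 0.0552 to 0.104 over 6 libraries, with a median of 0.266 over all candidates. SOX4, which encodes a transcription factor of progenitors, held 160, 173 and 204 CPM in WM-1119, against 138, 160 and 261 CPM in DMSO. BCL2, which encodes an inhibitor of apoptosis, held 171, 183 and 224 CPM in WM-1119, against 164, 198 and 267 CPM in DMSO. In both, as at FLT3, DMSO replicate 3 was highest and DMSO replicate 1 lowest, an order that follows from their choice by likeness to FLT3. These points share their libraries, depth and scaling.

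Of 87 further genes of FLT3, cytokine receptor, JAK-STAT and MAPK signalling, 83 had a region within 1 kb of an annotated end, and 0 passed in limma (0.0603% of all regions). Without DMSO replicate 3, 20 passed as higher and 4 as lower, beside 5.28% and 38% of all regions. At an unadjusted p under 0.05, 10 were higher and 2 lower (2.58% and 10.8% of all regions), and in edgeR on 5 libraries 0 passed as well. Their median log2 change was 0.19, beside -0.47 over all regions and 0.16 over all regions averaging 50 to 100 CPM. Their own median level was 73.9 CPM. Regions averaging 50 to 100 CPM had a larger share higher at an unadjusted p under 0.05 than all regions had. Their share lower at that p was smaller. The shares of all regions given beside the counts above are therefore not matched to the level of this list, and show no excess specific to it. The kinases and adaptors were higher in 28 of 31, the negative regulators in 16 of 24, the receptors and ligands in 8 of 13, the STAT factors in 3 of 4 and the further targets in 7 of 11. Among all tested regions, 3193 of the 3932 averaging 50 to 100 CPM and 1892 of the 2046 averaging 100 to 200 CPM were higher. With DMSO replicate 3 as the lone control the median of the list was 0.051 and that of the kinases and adaptors 0.0015, and with quantile normalization they were 0.076 and 0.098.

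The smallest p values in the higher direction belonged to GRB2, FES, IFNGR2 and STAT3. GRB2, the adaptor that links receptors to RAS, held 171, 150 and 160 CPM in WM-1119, against 101, 103 and 140 CPM in DMSO, with no overlap (log2 change 0.49, SE 0.16, adjusted p = 0.31 in limma). STAT3 held 79.3, 72.9 and 74.5 CPM in WM-1119, against 43.1, 60.8 and 61.8 CPM in DMSO, with no overlap (log2 change 0.46, SE 0.19, adjusted p = 0.34 in limma). FES, a tyrosine kinase of myeloid cells, and IFNGR2, a chain of the interferon gamma receptor, had log2 changes of 0.49 ± 0.17 and 0.41 ± 0.16 (SE) with overlapping groups. That of IFNGR2 was 0.21 without DMSO replicate 2. With DMSO replicate 3 as the lone control the changes were 0.20 for GRB2, 0.18 for FES, 0.29 for STAT3 and 0.025 for IFNGR2. Groups were apart in the higher direction in 22 of the 83 regions of the list and in the lower direction in 3. Among all 3932 tested regions averaging 50 to 100 CPM, 700 were apart as higher and 115 as lower. Among the 2046 averaging 100 to 200 CPM these counts were 400 and 15. The smallest p values in the lower direction belonged to SPRY1, PTPN6, IL2RG and PIK3CD. SPRY1, an inhibitor of receptor tyrosine kinase signalling, held 60.8, 46.8 and 39.3 CPM in WM-1119, against 66.7, 67.8 and 72.7 CPM in DMSO, with no overlap (log2 change -0.51, SE 0.19, adjusted p = 0.337 in limma; 0.26 with median centring). PTPN6, the phosphatase SHP-1, had a log2 change of -0.43 ± 0.19 (SE), which turned to 0.35 with median centring and was -0.16 without DMSO replicate 1. IL2RG and PIK3CD were weak, with log2 changes of -0.81 ± 0.43 and -0.80 ± 0.56 (SE). They were -0.50 for IL2RG and -0.29 for PIK3CD when DMSO replicate 1 was left out, and PIK3CD was -1.44 without DMSO replicate 3 and 0.48 with it as the lone control.

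**Figure D4:**
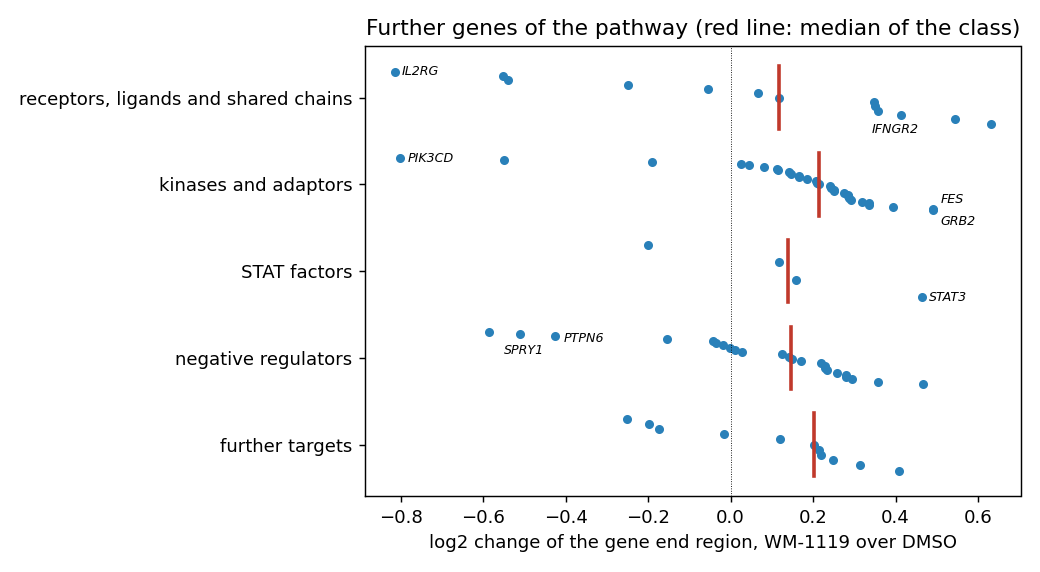
log2 change of the end region (WM-1119 over DMSO) of the 83 further pathway genes with a region, 1 point a gene, grouped by role, with the median of each class as a red line. Class medians lie between 0.12 and 0.22, with GRB2 and FES at 0.49 among the highest kinases and adaptors and IL2RG at -0.81 the lowest.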

How the data were processed

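H3K9ac libraries of MOLM-13 cells were grouped by the sample titles as 3 WM-1119 and 3 DMSO libraries. Tools named in the submitters' processing notes are MACS2, bedtools, SAMtools and Bowtie2 (no roles or versions given), with hg38 as the build; how regions were merged was not given in the sources used here. In CPM, the unit of the authors' deposited table, values are reads per 1000000 over the listed regions. Its name says TPM, but among values up to 100 reads 100% were within 0.02 of a whole multiple of 1 step per library. For WM-1119 replicate 2 the step is too near a round value, so edgeR 4.0.16 (quasi-likelihood, TMM) ran on the other 5 libraries. Starts were treated as counted from 0, and 1 was added. No library was a copy of another (chi-square per degree of freedom at least 1.55).

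limma 3.58.1 in R 4.3.3 (with trend and robust) modelled log2(CPM + 1) of all regions whose mean reached 1 CPM; Benjamini-Hochberg adjustment of p-values ran over the whole table. This scale understates the change of weak regions. The design had assumed TPM, and CPM took the same test. CPM cannot show a global gain or loss of H3K9ac, since every library sums to the same total. The promoter region was the strongest that overlapped the RefSeq promoter window, or, for SOCS2 and CSF2RB, lay within 1 kb of an annotated end; RefSeq genes and promoters were those of GRCh38.p14. Named regions were each promoter region, the strongest internal region, the 3 with the smallest p per direction, and, of the pathway genes, the 4 with the smallest p per direction, and exceptions are marked. Internal regions within 1 kb of an end of another coding gene were left out of that choice of the strongest. Members, lists and alternatives were chosen with earlier results of these data known. The background subtracted in 1 alternative was the 10th percentile of CPM per bp per library and chromosome over regions wider than 500 and up to 1200 bp, times width. Values below 0 were set to 0, and each library was then rescaled to a common total. Limits for counts of 0 cover counting error only. Simulated data (200 changed among 43870 regions, dispersion 0.05) tested the limma model, with 0 false calls. The changed regions averaged at least 10 CPM, and no difference in background between libraries was simulated. Other work used Python 3.11.15 with matplotlib 3.10.9, scipy 1.17.1, numpy 2.4.6 and pandas 2.3.3.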

Additional observations from a re-analysis of the deposited data

How the results depend on the processing

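Member regions called stayed at 0 except without DMSO replicate 3, where 39 passed (3 higher: the DUSP6 promoter, the STAT5B promoter and the second MAPKAPK3 start; 36 lower), and with a replicate block, where 4 passed. Leaving out 1 library gave 0 to 39 member calls, 0 to 24 pathway calls and 0 to 19600 calls over the table. The count of 27 over the table was 1 with quantile normalization, 2 with median centring, 2 when a mean of 10 CPM was required, 496 with a replicate block, 76 with background subtracted, and 0 for limma without trend and robust, for edgeR, without DMSO replicates 1 and 2, and without DMSO replicate 2. At an unadjusted p under 0.05 these settings gave, as higher and lower, 33 and 4903, 350 and 1773, 1338 and 728, and 398 and 1503. The cause was not tested. The labels do not say whether the replicate numbers pair the libraries. Deviations from group means correlated at 0.22, 0.05 and 0.33 for numbers 1, 2 and 3. For numbers 1 and 3 the same-numbered pair correlated best. DMSO replicate 2 was nearly tied, at 0.055 with WM-1119 replicate 1 and 0.053 with WM-1119 replicate 2. The block called 1 of the 83 pathway regions, GRB2, and, of the members, the 3 internal FLT3 regions nearest the promoter and 1 beyond PIM1, all lower.

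Signs that turned among the named regions, as log2 changes, were as follows. With median centring: FLT3 promoter 0.68, CSF2RB 0.56, CISH 0.37, SOCS1 0.74, STAT5B internal 0.40, the strongest region upstream of FLT3 0.39, that downstream of CISH 0.24, the second DUSP6 region 0.60, SOCS2 internal 0.68, SPRY1 0.26 and PTPN6 0.35. With quantile normalization: CSF2RB 0.20, SOCS2 -0.19, PIM1 -0.19, the second DUSP6 region 0.25 and STAT5B internal 0.16. With background subtracted: SOCS2 -0.060, the second DUSP6 region 0.18 and STAT5B internal 0.18. In edgeR: FLT3 promoter 0.22, CSF2RB 0.23, CISH 0.032, SOCS1 0.39, SOCS2 internal 0.48, PTPN6 0.14, the strongest region upstream of FLT3 0.0019 and the second DUSP6 region 0.095. Without DMSO replicates 1 and 2: CSF2RB 0.12, STAT5B -0.058, SOCS2 -0.21, SOCS2 internal 0.020, the second MAPKAPK3 start near CISH -0.14, PIK3CD 0.48, the second DUSP6 region 0.14 and the FLT3 internal to promoter ratio 0.091. Leaving out 1 library, the FLT3 promoter ran from -0.26 to 0.19, the FLT3 ratio from -1.63 to -0.62, SOCS1 from -0.11 to 0.036 (0.020 without WM-1119 replicate 2), SOCS2 from -0.19 to 0.22 (-0.069 without DMSO replicate 2), SOCS2 internal from -0.28 to 0.041 (0.027 without DMSO replicate 1), SOCS3 from -0.0051 to 0.29 and PIM1 from -0.053 to 0.091 (-0.011 without DMSO replicate 1). Median centring moved the median of all regions from -0.47 to 0.30. With 10 kb cut to 2 kb, 0 member regions passed.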
